A study of Homo sapiens with 6 samples.

Results

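ANGPTL1, ANGPTL4 and FGL1 encode secreted proteins that share a fibrinogen-like domain. They were taken by name from a deposited table of FPKM, a unit in which sequenced fragments are divided by transcript length and by the mapped total of the library. All 3 are among its 11456 gene symbols, with 1 entry each, and all 3 passed the filter of a mean of at least 1 FPKM that left 10469 genes for testing. The 3 were chosen by their names with the FPKM differences between vehicle and doxycycline in these libraries known, so their own differences are given as descriptions, without a test. The series measured polyadenylated RNA of HepG2-hCAR cells, which derive from HepG2, a human liver carcinoma line. Every library carries a lentiviral insert from which doxycycline, a tetracycline antibiotic, induces human CAR, the constitutive androstane receptor encoded by NR1I3. The groups are 3 libraries of cells given vehicle and 3 of cells given 1 µg/ml doxycycline, both for 72 h. The line was grown from single cells and kept for its strong induction, and no library holds doxycycline without the insert, so the antibiotic and the receptor cannot be told apart.

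NR1I3 was at 3.01 to 3.56 FPKM with vehicle and at 316 to 331 FPKM with doxycycline, in the direction of the labels. Of 10 hepatocyte markers all 10 were listed, but ALB, the serum albumin gene, was only at 1.77 to 1.93 FPKM with vehicle and 0.272 to 0.461 FPKM with doxycycline. The summed level of these 10 markers was 1802 to 1986 FPKM with vehicle and 970.3 to 1003 FPKM with doxycycline, and its part in the results below was not tested. Of 11 markers of endothelial, blood and stromal cells, 2 were listed, and the other 9 were not analysed here. Both differed by limma, with p-values adjusted over all genes tested. CD68, a macrophage marker, fell from 8.50 ± 0.211 to 5.08 ± 0.618 FPKM (adjusted p = 0.00226, mean ± SD, n = 3 libraries per group here and below). PDGFRB, a marker of stromal cells, rose from 0.856 ± 0.0957 to 1.43 ± 0.0327 FPKM (limma adjusted p = 0.00397), and passed the filter only through its doxycycline libraries. Their summed level was 9.18 to 9.71 FPKM with vehicle and 5.77 to 6.91 FPKM with doxycycline, and the part of this list in the results was likewise not tested. All libraries are of the same cell line, so CD68 and PDGFRB are not read as counts of macrophages or stromal cells. In bulk RNA, fewer cells that express a gene and less RNA per cell cannot be told apart. Nothing in the labels ties the libraries to separate cultures, and the p-values then measure only the spread between libraries, which may be technical.

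Angiopoietin-like proteins resemble the angiopoietins, with a coiled coil at the N-terminal side and a fibrinogen-like domain at the C-terminal side, which ANGPTL8 lacks, but they do not act as ligands of the angiopoietin receptor TEK. ANGPTL4 is known as an inhibitor of lipoprotein lipase that is made on fasting, hypoxia and activation of the fatty acid receptors of the PPAR family, and proprotein convertases such as FURIN separate its parts. ANGPTL8, a liver protein, takes part in the inhibition of the same lipase. ANGPTL1 has been described as an inhibitor of blood vessel growth. FGL1, also called hepassocin, is secreted by hepatocytes, responds to interleukin 6 and is a ligand of the lymphocyte receptor LAG3.

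The sequence before the transcription start is shown for the members that were higher with doxycycline, because CAR binds DNA together with RXR at pairs of a nuclear receptor half-site. ANGPTL1 and ANGPTL4 matched the RefSeq promoter table of GRCh38.p14 by symbol, and no window of FGL1 was searched. Each run is the 250 bases before the start, 5′ to 3′ on the strand of the gene. Capitals mark matches on either strand to the hypoxia response element core ACGTG, the GC box GGGCGG or the TATA box TATAAA.
ANGPTL1 (chr1:178871078-178871327, minus strand): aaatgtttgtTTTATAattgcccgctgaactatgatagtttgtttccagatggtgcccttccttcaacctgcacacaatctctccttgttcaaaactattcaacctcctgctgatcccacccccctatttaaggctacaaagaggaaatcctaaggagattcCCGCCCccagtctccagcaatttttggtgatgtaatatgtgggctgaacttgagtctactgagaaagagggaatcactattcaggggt
ANGPTL4 (chr19:8363905-8364154, plus strand): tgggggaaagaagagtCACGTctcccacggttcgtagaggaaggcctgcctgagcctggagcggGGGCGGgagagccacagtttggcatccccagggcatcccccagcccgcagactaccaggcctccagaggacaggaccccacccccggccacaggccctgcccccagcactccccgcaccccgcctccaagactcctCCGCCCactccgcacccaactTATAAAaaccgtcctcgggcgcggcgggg

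Neither window held the half-site AGGTCA, which 12.1% of the 35116 promoters of the table hold, or the form GGGTCA, which also 12.1% hold. The pair with a 4-base gap (DR4, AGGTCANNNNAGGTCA) was in 0.0142% of them and the pair with a 1-base gap (DR1, AGGTCANAGGTCA) in 0.0171%, and neither was in these windows. ACGTG, present in 18.5% of promoters, had 1 match in the ANGPTL4 window and none in that of ANGPTL1. TATAAA, present in 10.7%, began 29 bases before the ANGPTL4 start on its own strand, while the ANGPTL1 match was on the opposite strand and far from the start. The GC box, present in 42.6%, had 2 matches at ANGPTL4 and 1 at ANGPTL1, and the windows contained 68.8% and 44.0% G and C bases. A match is only a description of these letters, and sites outside the windows were not searched.

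ANGPTL1 lies on chromosome 1 of GRCh37 at 178818840 to 178840187, minus strand (ENSG00000116194). Its level was 2.21, 2.26 and 2.50 FPKM in the vehicle libraries and 13.7, 13.6 and 12.9 FPKM in the doxycycline libraries. All 3 doxycycline libraries were far above all 3 vehicle libraries. The mean was 5.77-fold higher, at 13.4 ± 0.412 against 2.32 ± 0.159 FPKM. The log2 fold change, here always the difference of mean log2(FPKM + 1), was 2.12 (SE 0.05), which placed ANGPTL1 at rank 9 from the top of the 10469 genes tested. Ordered by mean level, it was above 23.3% of the listed symbols with vehicle and above 74.2% with doxycycline.

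ANGPTL1 sits inside RALGPS2, the gene of a guanine nucleotide exchange factor, on the opposite strand. In GENCODE 29 (GRCh38) none of the exons of the 9 RALGPS2 transcripts falls within ANGPTL1, so ANGPTL1 lies in an intron. RALGPS2 was at 1.89, 2.19 and 3.03 FPKM with vehicle and 1.84, 1.81 and 1.67 FPKM with doxycycline, and did not pass the test (log2 fold change -0.27, limma adjusted p = 0.169). The libraries keep the strand, but whether the authors' counting used it is not given in the sources used here.

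ANGPTL4 lies on chromosome 19 of GRCh37 at 8428173 to 8439257, plus strand (ENSG00000167772), and overlaps no other listed gene. Its level was 1.43, 1.17 and 1.35 FPKM with vehicle and 2.17, 1.73 and 2.10 FPKM with doxycycline. The groups did not overlap, but the gap between the highest vehicle library and the lowest doxycycline library was small. The mean was 1.52-fold higher, at 2.00 ± 0.236 against 1.31 ± 0.134 FPKM (log2 fold change 0.37, SE 0.08). ANGPTL4 was a gene of low level in both groups, above 12.7% and 19.8% of the listed symbols, and ranked 894 from the top by log2 fold change. Leaving out vehicle replicate 2, doxycycline replicate 1 or doxycycline replicate 3 moved its log2 fold change to 0.33, 0.33 and 0.35.

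FGL1 lies on chromosome 8 of GRCh37 at 17721889 to 17767874, minus strand (ENSG00000104760), and overlaps no other listed gene. Its level was 22.0, 23.9 and 23.1 FPKM with vehicle and 9.94, 10.1 and 10.1 FPKM with doxycycline. Every doxycycline library was below every vehicle library, and the doxycycline libraries lay close together. The mean was 2.28-fold lower, at 10.1 ± 0.116 against 23.0 ± 0.948 FPKM (log2 fold change -1.12, SE 0.04). FGL1 ranked 80 from the bottom of the genes tested.

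In each of the 3 members the vehicle and doxycycline values were apart, as in 47.1% of the genes tested. Since the members were picked with this contrast known, nothing is read from this count. For the other genes below, rose and fell stand for a call by limma at an adjusted p below 0.05. By this rule 28.8% of all genes tested were called, 15.2% higher and 13.6% lower.

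**Figure D1:**
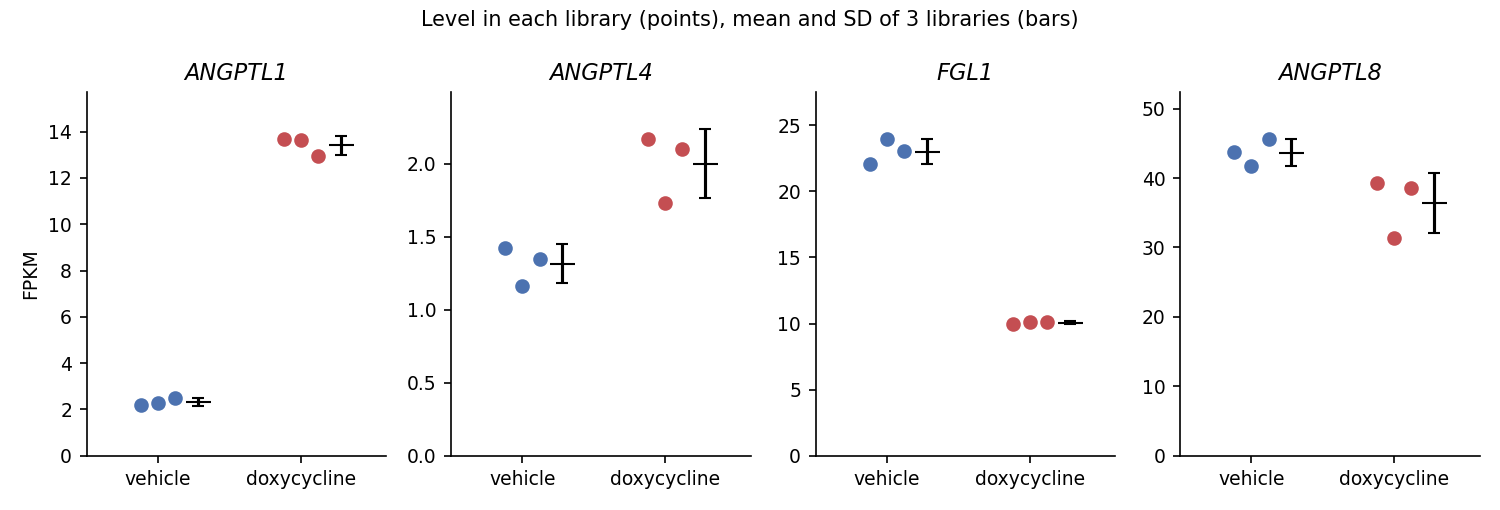
FPKM (vertical axes, each from 0) of ANGPTL1, ANGPTL4, FGL1 and ANGPTL8 in the 3 vehicle and 3 doxycycline libraries, with 1 point per library in the order of replicate number and the mean with its SD beside them. ANGPTL1 goes from 2.21 to 2.50 FPKM up to 12.9 to 13.7 FPKM, FGL1 goes down, and ANGPTL4 and ANGPTL8 move less.

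FPKM is scaled to transcript length, so levels can be set side by side between genes. With vehicle the order was FGL1, ANGPTL1, ANGPTL4, and FGL1 was 9.21 to 10.6 times the level of ANGPTL1. With doxycycline ANGPTL1 came first, and FGL1 was 0.727 to 0.784 times the level of ANGPTL1. No neighbours in either order overlapped. The summed level of the 3 genes was nearly the same, at 26.6 ± 0.870 FPKM with vehicle and 25.5 ± 0.296 FPKM with doxycycline, but its makeup was not. FGL1 made up 86.3% ± 1.00 of that sum with vehicle and 39.5% ± 0.874 with doxycycline. ANGPTL1 made up 8.72% ± 0.540 and 52.6% ± 1.10, and ANGPTL4 4.94% ± 0.649 and 7.85% ± 0.922.

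Of the 9 other genes of the angiopoietin and angiopoietin-like family, ANGPTL8 and ANGPTL2 were listed, and the other 7 were not analysed here. ANGPTL8 had the highest level of the family, at 43.8, 41.7 and 45.6 FPKM with vehicle and 39.3, 31.4 and 38.5 FPKM with doxycycline. The doxycycline libraries were all lower, but the difference did not pass the test (log2 fold change -0.26, limma adjusted p = 0.0773). ANGPTL8 was 33.4 ± 2.56 times the level of ANGPTL4 with vehicle and 18.2 ± 0.0903 times with doxycycline. It lies within DOCK6 on the opposite strand, and in GENCODE 29 there are 8 overlapping pairs of exons of these genes, so without strand their reads cannot be told apart. DOCK6 itself was at 5.85 ± 0.163 and 5.07 ± 0.435 FPKM. ANGPTL2 was below the filter, with 0.262 to 0.697 FPKM with vehicle and 0.611 to 0.767 FPKM with doxycycline, which overlap.

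**Figure D2:**
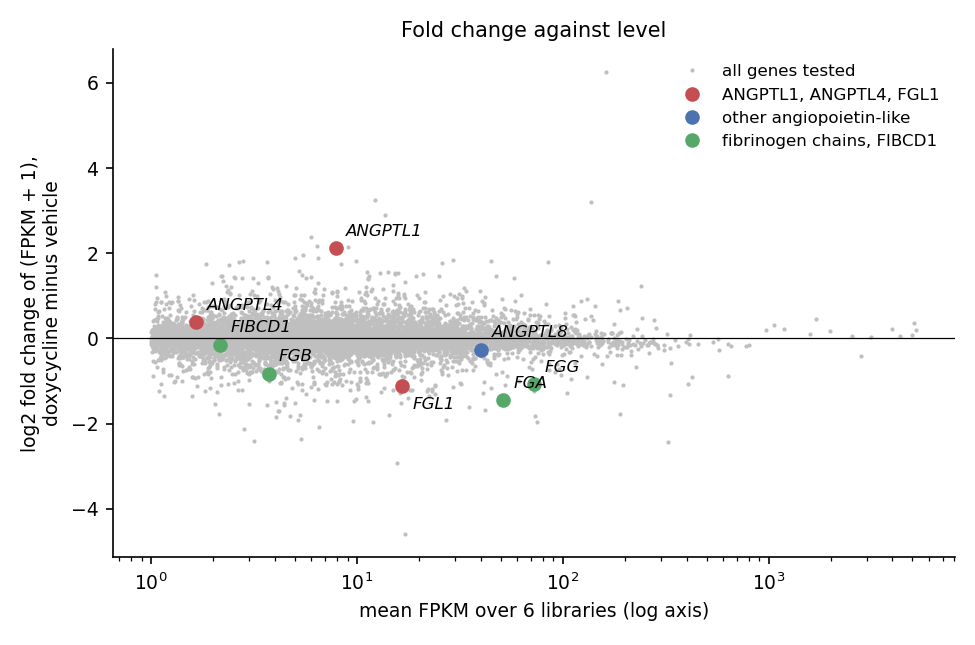
Mean FPKM over the 6 libraries (horizontal log axis) against the log2 fold change, doxycycline minus vehicle (vertical axis), with 1 grey point per gene tested and the named genes in colour. ANGPTL1 stands at 2.12, at rank 9 from the top. FGL1 at -1.12 lies near FGG (-1.08) and less near FGB (-0.84) in fold change, and between them in level. ANGPTL4 lies close to the bulk of genes at 0.37.

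FGL1 shares its domain with the fibrinogen chains, the clot-forming proteins made by hepatocytes. Of 13 genes of the list of fibrinogen chains and other fibrinogen-domain proteins 4 were listed and tested, of which 3 fell and 0 rose by limma (0 higher and 3 lower at an unadjusted p below 0.05). The median log2 fold change of the list was -0.96, against 0.01 over all genes tested. FGG fell 2.14-fold (adjusted p = 1.09e-05), FGB fell 2.10-fold (adjusted p = 0.00252), and FGA fell 2.96-fold (adjusted p = 0.0154), all by limma, next to the 2.28-fold lower level of FGL1. The FGA call ended without doxycycline replicate 1 (adjusted p = 0.0505). FGL1 was 13.1% ± 3.03 of the summed level of these chains with vehicle and 13.5% ± 0.214 with doxycycline, a difference within the spread. The highest of those shares, 16.6%, was in vehicle replicate 2, where FGA was at 43.0 FPKM against 95.4 and 91.0 in the other vehicle libraries. FIBCD1, a membrane receptor with the same domain, was at 2.32 ± 0.307 and 1.99 ± 0.381 FPKM and did not pass the test.

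FGL1 is also an acute-phase gene, so the list of acute-phase proteins was set beside it. Of its 17 genes 11 were listed and 10 tested, of which 8 fell and 0 rose by limma (9 lower and 0 higher at an unadjusted p below 0.05). The median log2 fold change was -0.57, and 6 to 8 genes of the list fell when 1 library was left out. Falls were not particular to the fibrinogen and acute-phase lists. Of the 10 hepatocyte markers, which include FGB and SERPINA1 of these lists, 7 fell and 0 rose by limma, with a median of -0.75. SERPINA3, a protease inhibitor, fell from 13.9 ± 1.10 to 6.06 ± 0.569 FPKM (limma adjusted p = 3.08e-04). HP, haptoglobin, fell from 2.10 ± 0.605 to 0.492 ± 0.0258 FPKM, and SAA4, a serum amyloid protein of lipoproteins, from 2.07 ± 0.276 to 0.801 ± 0.122 FPKM. ORM2, an orosomucoid, fell from 137 ± 2.96 to 91.1 ± 3.47 FPKM, but it has a near-identical copy, ORM1, with which reads may be shared. LCN2, lipocalin 2, chosen after its values were seen, was at 4.20 ± 0.471 and 4.14 ± 0.402 FPKM.

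The list of regulators of FGL1 holds liver transcription factors and the interleukin 6 pathway. All 11 genes were tested, of which 2 rose and 1 fell, with a median log2 fold change of 0.05. CEBPB, a transcription factor of the acute phase, rose from 36.4 ± 0.657 to 46.8 ± 3.27 FPKM (limma adjusted p = 0.00456). JAK1, a kinase of the interleukin 6 receptor, rose from 22.5 ± 1.46 to 26.0 ± 0.401 FPKM, and lost its call when doxycycline replicate 1 (adjusted p = 0.0691), 2 (0.0872) or 3 (0.0773) or the third vehicle library (0.0678) was left out. HNF4A, a central hepatocyte factor chosen after its values were seen, was at 7.63, 7.77 and 8.51 FPKM with vehicle and at 3.65, 4.00 and 8.24 FPKM with doxycycline. Doxycycline replicate 3 was level with the vehicle libraries and the other 2 were far lower. HNF4A did not pass the test with all libraries (log2 fold change -0.58, limma adjusted p = 0.151), and did without doxycycline replicate 3 (-0.89, adjusted p = 0.00142). Without that library 2 genes of the list fell and 1 rose, and without vehicle replicate 3 also 1 rose. FGL1 was at 9.94, 10.1 and 10.1 FPKM in the doxycycline libraries, and a link between FGL1 and HNF4A was not tested.

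ANGPTL4 acts on the clearance of triglyceride-rich lipoproteins, and the lipase axis list holds the lipases, their cofactors, the proprotein convertases and the lipoprotein receptors. Of its 18 genes 14 were listed and tested, and the lipoprotein lipase gene was not analysed here. Of these, 6 rose and 5 fell, with a median log2 fold change of 0.12. FURIN, a convertase known to cut ANGPTL4, was at 12.4, 13.4 and 13.0 FPKM with vehicle and 36.7, 37.8 and 37.3 FPKM with doxycycline, and rose 2.88-fold (log2 fold change 1.46, limma adjusted p = 1.09e-05). The 3 doxycycline libraries were close together and far above the vehicle libraries. PCSK5, another convertase, named after its values were seen, went the other way, from 4.63 ± 0.312 down to 2.68 ± 0.110 FPKM (limma adjusted p = 8.29e-04).

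Among the cofactors, APOC3, an inhibitor of lipoprotein clearance, fell 9.83-fold, and APOA5, which promotes lipase activity, fell 3.42-fold, from 7.27, 6.95 and 6.78 FPKM to 2.17, 1.61 and 2.36 FPKM. LIPC, hepatic lipase, fell from 4.50 ± 0.726 to 2.66 ± 0.295 FPKM, and APOC2, the activator of lipoprotein lipase, from 63.1 ± 4.79 to 45.5 ± 3.47 FPKM, both named after their values were seen. APOC1, a further apolipoprotein of the list and likewise named afterwards, went the other way. It rose from 69.5 ± 2.34 to 93.1 ± 2.66 FPKM (limma adjusted p = 5.03e-04). Among the receptors, VLDLR rose 2.75-fold, from 0.559 ± 0.0573 to 1.53 ± 0.0846 FPKM. With a mean of 1.05 FPKM over the 6 libraries, VLDLR passed the filter only through its doxycycline libraries. Without doxycycline replicate 1 or 2 only 3 genes of the list rose, because VLDLR then had a mean below the filter and the calls of 2 others, PCSK6 (adjusted p = 0.109 and 0.111) among them, ended. SEL1L, which serves lipase folding, was at 23.1 ± 0.801 and 21.5 ± 0.546 FPKM. LMF2, by name a lipase maturation factor, was at 11.5 ± 0.101 and 11.9 ± 0.684 FPKM. Neither SEL1L nor LMF2, both named after their values were seen, passed the test.

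**Figure D3:**
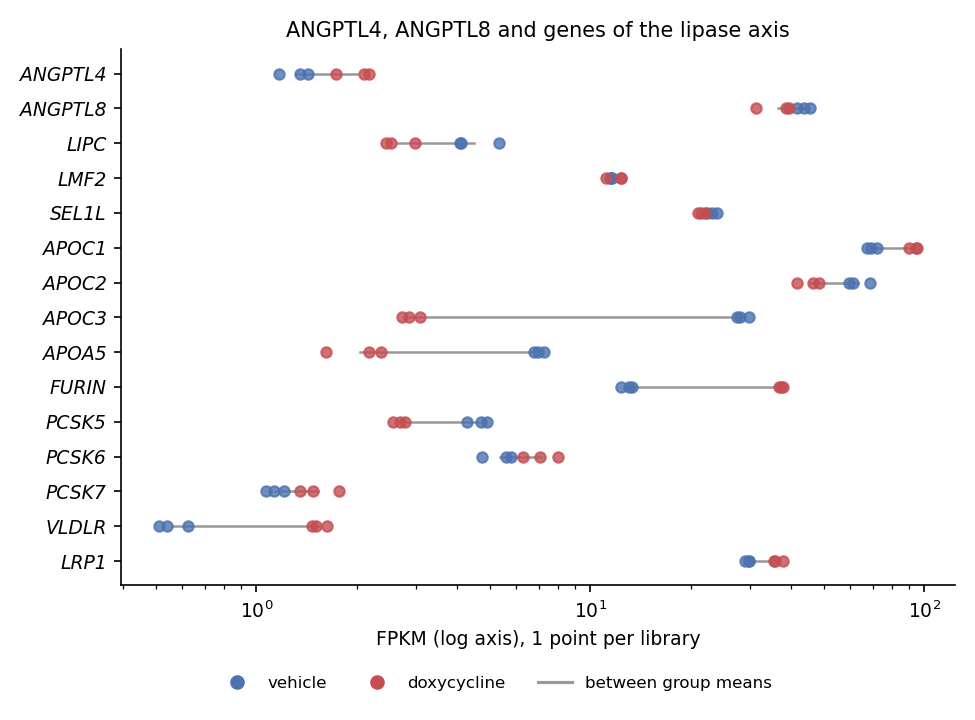
FPKM (horizontal log axis) of ANGPTL4, ANGPTL8 and 13 of the 14 listed genes of the lipase axis, with 1 point per library and a line between the group means. APOC3 and APOA5 move to lower values by 9.83-fold and 3.42-fold, FURIN and VLDLR to higher values by 2.88-fold and 2.75-fold, and ANGPTL4 by 1.52-fold.

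The genes known to drive ANGPTL4 were examined as a list of its regulators, of which all 10 were listed and 9 tested. PPARD, the fatty acid receptor PPAR delta, rose from 3.72 ± 0.330 to 6.41 ± 0.402 FPKM (limma adjusted p = 0.00136), and 2 fell. RXRA, the partner of both the PPARs and CAR, fell from 5.47 ± 0.0965 to 3.81 ± 0.224 FPKM (limma adjusted p = 0.00190). PPARGC1A, a coactivator, fell from 5.99 ± 0.431 to 4.98 ± 0.227 FPKM, a call that ended without any 1 of the 6 libraries, which left 1 gene of the list that fell. PPARA, the main PPAR of liver, named after its values were seen, was below the filter at 0.813 to 1.33 FPKM with vehicle and 0.633 to 0.696 FPKM with doxycycline. The hypoxia factors HIF1A and EPAS1, likewise named afterwards, varied widely within both groups and did not pass the test. HIF1A was at 23.1, 23.5 and 36.5 FPKM with vehicle and 32.9, 32.8 and 49.0 FPKM with doxycycline, with replicate 3 the highest library of both groups. EPAS1 was at 22.1 ± 8.96 and 39.7 ± 15.6 FPKM.

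ANGPTL4 is a target of the PPAR family, so a list of other PPAR target genes was set beside it. Of the 15 genes of that list 12 were listed and 11 tested, of which 3 fell and 0 rose by limma (4 lower and 0 higher at an unadjusted p below 0.05), with a median log2 fold change of -0.15. FABP1, a carrier of fatty acids in the cytoplasm, fell from 33.7 ± 2.76 to 0.428 ± 0.108 FPKM (log2 fold change -4.60). The ratio of its means, 78.7-fold, rests on this very low doxycycline level. EHHADH, a peroxisomal oxidation enzyme, fell 1.98-fold, and ACADVL, a mitochondrial dehydrogenase, fell from 27.0 ± 0.0808 to 23.5 ± 1.61 FPKM. The ACADVL call ended without any 1 vehicle library or without doxycycline replicate 2 or 3 (adjusted p up to 0.0960). Without vehicle replicate 2, 1 gene of the list rose, the carnitine carrier SLC25A20 (adjusted p = 0.0281). PLIN2, a lipid droplet coat protein, and CPT1A, the entry enzyme of mitochondrial fatty acid oxidation, both named after their values were seen, were at 103 ± 2.30 and 105 ± 5.14 FPKM and at 14.9 ± 0.402 and 15.0 ± 0.194 FPKM.

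Hypoxia-inducible genes are a further group to which ANGPTL4 belongs. All 10 of the list were tested, of which 8 fell and 1 rose, with a median log2 fold change of -0.33. CA9, a carbonic anhydrase, fell 1.84-fold, ANKRD37 fell 2.03-fold, and BNIP3, a mitochondrial protein of mitophagy, fell from 90.6 ± 4.02 to 70.4 ± 3.30 FPKM. SLC2A1, the glucose transporter GLUT1, rose from 236 ± 3.04 to 317 ± 3.37 FPKM (limma adjusted p = 6.34e-05). Without vehicle replicate 2 or 3 or without doxycycline replicate 3, 5 of the 10 fell.

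ANGPTL1 was set beside other secreted regulators of blood vessel growth. Of 15 such genes 11 were listed and tested, of which 6 rose and 1 fell, with a median log2 fold change of 0.35. TIMP2, an inhibitor of matrix metalloproteinases, was at 4.05, 10.3 and 9.62 FPKM with vehicle and 26.4, 22.5 and 22.0 FPKM with doxycycline, and rose 2.95-fold (limma adjusted p = 0.0142). Vehicle replicate 1 was the lowest library of TIMP2. COL18A1, the collagen from which endostatin is cut, rose from 14.8 ± 0.190 to 23.2 ± 0.0937 FPKM, TIMP1 from 34.3 ± 0.822 to 49.2 ± 1.90 FPKM, and CYR61, a matricellular protein, from 5.33 ± 0.494 to 7.61 ± 0.420 FPKM. TIMP3, the 1 gene that fell, went from 5.00 ± 0.342 to 3.97 ± 0.124 FPKM, a call that ended without doxycycline replicate 2 (adjusted p = 0.0542) or 3 (0.0550). With the former left out 0 genes of the list fell. VEGFA, also a secreted regulator of vessel growth, was counted with the hypoxia-inducible genes and not here. Named after its values were seen, it fell from 6.07 ± 0.431 to 4.94 ± 0.305 FPKM (limma adjusted p = 0.0349). The VEGFA call ended without vehicle replicate 2 or 3 or doxycycline replicate 2 or 3.

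**Figure D4:**
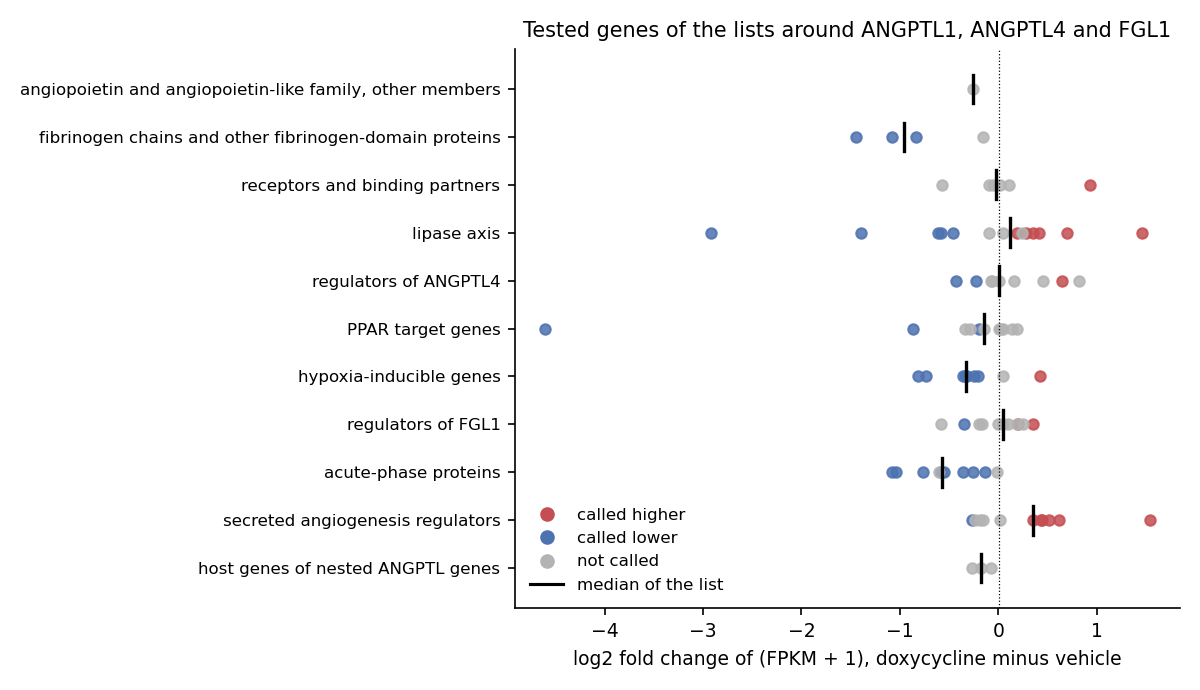
Log2 fold change, doxycycline minus vehicle (horizontal axis), of each tested gene of 11 lists (rows), coloured by its call, with the median of each list as a black bar and the median of all genes tested as a dotted line. The fibrinogen and acute-phase lists lie to the left with medians of -0.96 and -0.57, and the angiogenesis list to the right at 0.35.

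Of 12 receptors and binding partners 6 were listed and tested, and neither TEK nor LAG3 was analysed here. Of these 1 rose and 0 fell by limma (2 higher and 0 lower at an unadjusted p below 0.05). ITGAV, the integrin alpha V subunit, rose from 85.8, 92.3 and 90.5 FPKM to 172, 175 and 168 FPKM (limma adjusted p = 2.44e-05). ITGB1, the integrin beta 1 subunit, was at 137 ± 2.20 and 130 ± 20.5 FPKM. Leaving out doxycycline replicate 1, the highest of its libraries, made ITGB1 the 1 gene of the list that fell (adjusted p = 0.0499). SDC4, a heparan sulfate proteoglycan named after its values were seen, was at 99.3 ± 0.802 and 100.4 ± 3.67 FPKM.

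With all libraries no listed gene around the members was called. Counting RALGPS2 and the nearest listed gene on either side of each member there were 7, of which limma called 0 (1 at an unadjusted p below 0.05), with doxycycline over vehicle ratios of 0.750 to 1.12. ANGPTL4 lies 15607 bases from RAB11B, a vesicle GTPase at 18.7 ± 1.30 and 20.9 ± 1.18 FPKM, and 39948 bases from RPS28, a ribosomal protein gene at 41.1 ± 2.89 and 37.3 ± 4.01 FPKM. FGL1 lies 12474 bases from PCM1, a centriolar satellite protein at 13.7 ± 0.519 and 13.2 ± 0.387 FPKM, and 63462 bases from MTUS1 at 13.3 ± 0.570 and 14.5 ± 0.118 FPKM. MTUS1 had groups that did not overlap and gained a call without vehicle replicate 1 (limma adjusted p = 0.0454, against 0.0858 with all libraries). The neighbours of ANGPTL1 beyond its host, RASAL2 and FAM20B, were at 1.42 ± 0.760 and 1.39 ± 0.727 FPKM and at 13.5 ± 0.744 and 14.6 ± 0.532 FPKM.

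The genes with the profile most like each member were found by the root-mean-square difference of log2(FPKM + 1) values over the 6 libraries, after each gene was centred on its own mean. For ANGPTL1 they were LOXL4, a lysyl oxidase of the matrix (0.07), ISM1, a secreted protein (0.08), and TNS4, a tensin (0.16). LOXL4 was at 2.92, 2.41 and 2.79 FPKM with vehicle and 15.3, 15.3 and 15.2 FPKM with doxycycline. For FGL1 they were ARHGAP18, a GTPase-activating protein (0.03), CPE, carboxypeptidase E (0.04), and DGKK, a diacylglycerol kinase (0.04). CPE was at 95.6, 96.5 and 92.4 FPKM and then 43.2, 42.8 and 42.6 FPKM. For ANGPTL4 they were BTG1, an inhibitor of proliferation (0.02), TES, a focal adhesion protein (0.04), and SLC6A9, a glycine transporter (0.04). BTG1 was at 8.36, 7.50 and 8.01 FPKM and then 11.2, 9.47 and 10.5 FPKM. In ANGPTL4 and in these last genes, replicate 2 was the lowest library of both groups. These genes were picked for likeness over the same libraries, so nothing is read from this.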

How the data were processed

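Strand-specific poly(A) libraries were sequenced by the authors, and the deposited values are FPKM, with 1 column per library. Per the submitters' processing notes, FastQC, cutadapt, HISAT2 and StringTie were used on GRCh37, and the annotation release is not given in the sources used here. FPKM is relative to the mapped fragments of each library, so the depth is unknown and no counting interval is given. The FPKM of the 11461 entries summed to 204318 to 209372 per library. The entry with the highest mean represented each symbol.

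Genes with a mean of at least 1 FPKM were log2 transformed with a pseudocount of 1 and fitted by limma 3.58.1 (R 4.3.3) with a group term and a variance trend. That mean is over all 6 libraries, so a gene below 1 FPKM in 1 group could pass through the other. VLDLR and PDGFRB passed through doxycycline in this way, and HP, SAA4, ALB and FABP1 through vehicle. Two-sided p-values were adjusted by Benjamini-Hochberg across the whole table, with a call below 0.05, and the procedure was tested on simulated data. The log2 scale understates the change of low genes.

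The members, lists and tests were chosen with earlier results of these data known. Named genes are the members, all other listed genes of the family and domain, up to 4 called genes of each list with the largest change (or, with fewer than 2 called, the 2 of highest mean), the 3 genes most like each member and the neighbours. Other genes in the text were chosen after their values were seen. Some list members that enter the counts are not named here. Alternatives were 2 other pseudocounts, no filter, 2 scalings, no trend, summed entries, the replicate number as a block and each library left out in turn, plus, for the number of genes called, a threshold of 0.01. Figures used python 3.11.15 with matplotlib 3.10.9.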

Additional observations from a re-analysis of the deposited data

How the results depend on the processing

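Over the 14 alternatives for single genes the log2 fold change of ANGPTL1 was 2.09 to 2.48, that of FGL1 -1.18 to -1.09 and that of ANGPTL4 0.33 to 0.57, with 0.33 to 0.44 for ANGPTL4 when 1 library was left out. These ranges describe values by which the members were chosen and support nothing. Of the 114 other genes of the lists and neighbourhoods, 110 were tested under all 14, of which 85 kept their side of the threshold in each. The other 4, VLDLR, ALB, HAMP and EGLN3, were below the filter in some fits. Among the 114, 13 lost a call under some alternative, 13 gained one and 0 called genes turned direction. The number of genes called was 3012 and became 1636 at an adjusted p below 0.01 (875 higher and 761 lower), and 2309 to 2376 with 1 library left out. The replicate numbers did not pair the libraries (correlations of same-numbered deviations across genes of 0.01, -0.03 and 0.09). With the replicate number as a block 2343 genes were called. Under that block ANGPTL8 was called, which gave 1 lower gene of its family, the regulators of ANGPTL4 had 2 higher, HIF1A being the gene gained (limma adjusted p = 0.00411), and 1 lower, and 4 hypoxia-inducible genes fell, since VEGFA, NDRG1, EGLN3 and PDK1 lost their calls. The cause was not tested. With 1 library left out, the ranges were 3 to 5 higher for the lipase axis, 1 to 1 lower for the regulators of ANGPTL4, 5 to 8 lower for hypoxia-inducible genes, 0 to 1 higher for PPAR target genes, 0 to 1 lower for receptors and binding partners, 1 to 3 higher and 1 to 2 lower for the regulators of FGL1, and 0 to 1 lower for secreted angiogenesis regulators. Depth is unknown, which limits what can be said of ANGPTL4 and ANGPTL2, the family members of lowest level.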
